A study of Homo sapiens with 8 samples.

Results

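The 4 human HOX clusters, HOXA, HOXB, HOXC and HOXD, were followed in a map of distance to nuclear speckles in 786-O cells. The members are the genomic windows that overlap the clusters by at least 1 bp on hg19, taken at 7:27130000-27250000 (HOXA, 120 kb), 17:46600000-46810000 (HOXB, 210 kb), 12:54330000-54450000 (HOXC, 120 kb) and 2:176950000-177060000 (HOXD, 110 kb). They number 83 of 278316 windows of 100 kb and 132 of 556938 windows of 50 kb, and 38 HOX genes are counted as members of the 4 clusters. Windows lying wholly within 1 Mb on either side of a cluster, 656 of 100 kb and 1376 of 50 kb in all, served as flanks.

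HOX genes encode homeodomain transcription factors that give cells their position along the body axis, and their order along each cluster follows the order in which they are switched on. The clusters arose by duplication, so that genes with the same number in different clusters are paralogs. Polycomb complexes hold silent HOX genes in a compact state and Trithorax complexes keep active ones open, and adult kidney cells retain part of the HOX program. SON forms part of the core of nuclear speckles, bodies rich in splicing factors, and regions near speckles are as a rule rich in genes and active. In SON TSA-seq an antibody to SON directs the deposit of biotin on nearby chromatin, so that pulled-down DNA reports nearness to speckles.

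786-O is an established line from a clear cell renal carcinoma. The series compares cells given DMSO vehicle with cells given 2 µM PT2399, a HIF-2α inhibitor, both for 3 h at atmospheric oxygen. Each treatment has 2 libraries of SON-labelled DNA and 2 input libraries, 8 in all. The titles set the groups, and for 4 libraries the treatment or antibody entry contradicts the title. Values are the authors' log2 concentrations, 1 mean per treatment and window. Values of single libraries are not analysed here, so depth is unknown and no SD could be given. Whether the 2 replicates came from separate cultures is not stated, so the p-values may measure technical spread only. RNA was not measured, so neither HOX expression nor the identity of the line could be checked against marker genes. The lowest values, -0.07 for DMSO and -0.11 for PT2399, form a floor that held 64.5% and 64.2% of all 100 kb windows. A window counts as measured when both treatments reach a log2 concentration of 2 (32.4% of all 100 kb windows). Changes are PT2399 minus DMSO on the log2 scale. Over all measured 100 kb windows the median change was -0.13, and cluster changes are also given relative to the median of the same window set (recentred).

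The clusters share regulatory RNAs as well as HOX genes, and the mature miR-196 sequences are shown because the same seed recurs in the HOXA, HOXB and HOXC clusters. They come from RefSeq (GRCh38.p14) and are tied to a cluster by gene order alone, since the windows are on hg19. The seed, bases 2 to 8 from the 5′ end, is in capitals.
hsa-miR-196b-5p (HOXA, between HOXA9 and HOXA10): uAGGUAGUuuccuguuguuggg
hsa-miR-196a-5p (HOXB, between HOXB9 and HOXB13, and HOXC, between HOXC10 and HOXC9): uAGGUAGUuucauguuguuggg
The miR-196 microRNAs, which target HOX transcripts, share the seed AGGUAGU across HOXA, HOXB and HOXC and differ by the single substitution A12C (miR-196a-5p base first, counted from the 5′ end). The MIR10 genes of HOXB and HOXD are paralogs as well.

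HOXA, HOXB and HOXC had high SON levels in DMSO, and HOXD lay at or near the floor. Over the 100 kb windows of each cluster the median DMSO level was 10.49 in HOXB, 10.05 in HOXC, 9.89 in HOXA and -0.07, the floor, in HOXD. The first 3 medians stood above 95.4%, 92.6% and 91.7% of all 100 kb windows, of which 64.5% are at the DMSO floor. Among measured 100 kb windows alone they stood above 85.8% (HOXB), 77.1% (HOXC) and 74.3% (HOXA). With PT2399 the medians were 10.43 in HOXB, 9.82 in HOXC, 9.88 in HOXA and 4.11 in HOXD. All 27 HOXB windows, 17 of 19 HOXC windows and 12 of 19 HOXA windows reached 9.62, the level above which the top 10% of all 100 kb windows lie, against 0 of 18 in HOXD. The window ranges of the first 3 overlapped, 10.22 to 10.91 in HOXB, 9.50 to 10.50 in HOXC and 8.24 to 10.52 in HOXA, so their order is not clear beyond the spread along each cluster. HOXD, from -0.07 to 5.86, did not overlap any of them. The order of the 3 high clusters also moved with window size, since at 50 kb the medians were 9.41 in HOXB, 9.30 in HOXA and 9.25 in HOXC.

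**Figure D1:**
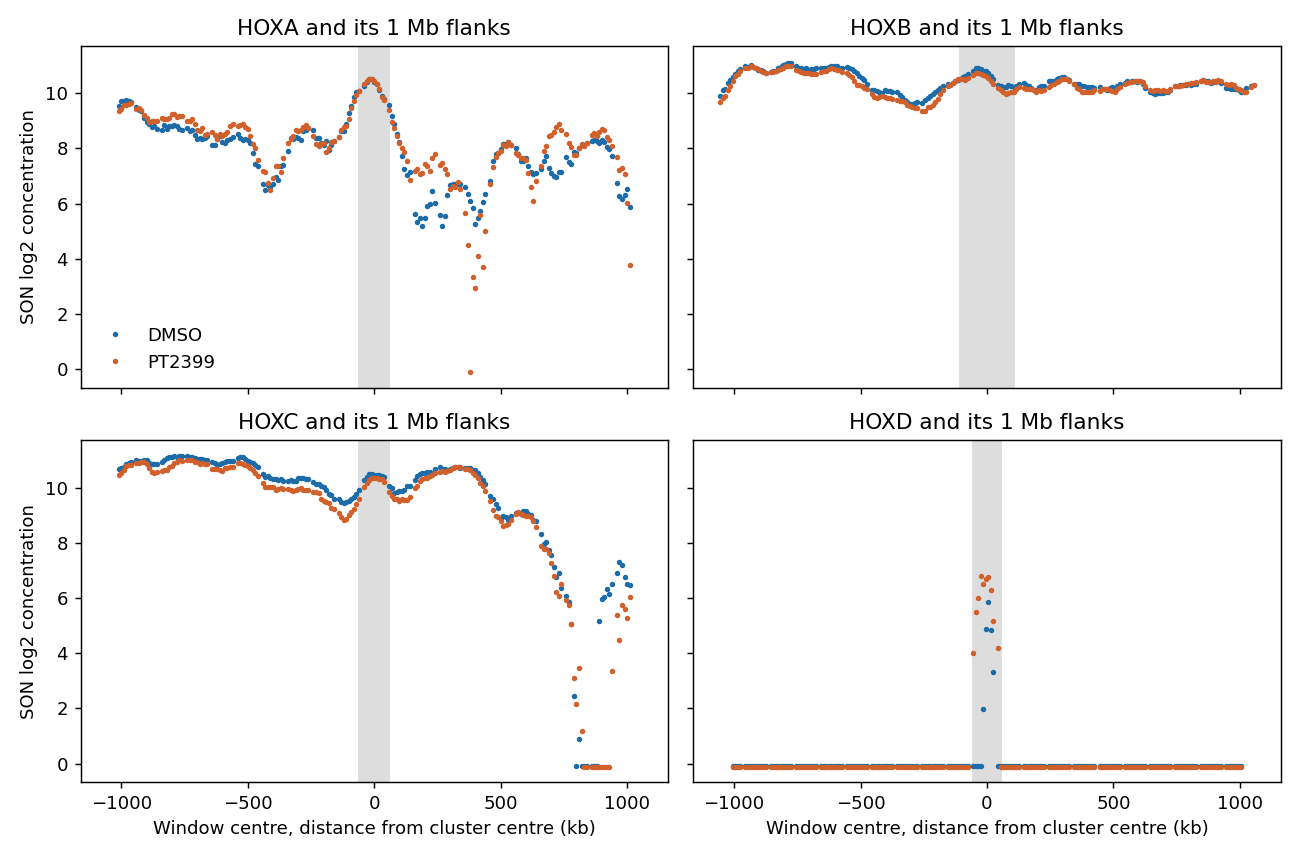
SON log2 concentration (y axis) of 100 kb windows by the distance of the window centre from the centre of each HOX cluster in kb (x axis), for DMSO (blue) and PT2399 (orange), with the cluster shaded. HOXA forms a peak reaching 10.52 in DMSO above lower flanks, HOXB and HOXC lie within high regions, and HOXD is an island in flanks that are wholly at the floor.

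The clusters differed in how they sat within their surroundings. HOXA, whose genes run from HOXA2 to HOXA13 with rising coordinates, was a local maximum. Its DMSO median of 9.89 was above each of its 164 flank windows, whose median was 8.03, and stood 1.87 higher on the log2 scale, or 3.64-fold. Its highest window, 7:27130001-27230000, was at 10.52 in DMSO and 10.51 with PT2399, and covers most of the interval. The DMSO level was 9.29 in the window at 7:27040001-27140000, at the HOXA2 side, and 8.24 at 7:27240001-27340000, past HOXA13, which patterns the distal limb. Windows within 1 log2 unit of the peak spanned 250 kb. The flank on the HOXA2 side, with SKAP2, had a median of 8.40, and the one on the HOXA13 side, with EVX1, a homeobox gene next to the cluster, and HIBADH, had 7.14.

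HOXB lay in a broad high region. Its median of 10.49 was 0.16 above that of its flanks (10.33), and 19 of 164 flank windows were higher than its highest window, 17:46620001-46720000, at 10.91. The flank on the side of HOXB1, an early hindbrain gene, was higher than the cluster with a median of 10.76, and that on the side of HOXB13, a prostate and hindgut gene, was lower with 10.27. Within the cluster, windows centred on the HOXB1 side of the midpoint had a median of 10.79 and those on the HOXB13 side 10.29. Windows within 1 log2 unit of the HOXB peak ran to the edge of the flanks, over at least 1370 kb. In 50 kb windows this run was shorter, 305 kb, and ended within the flanks, against 155 kb for HOXA.

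HOXC sat between unequal flanks. Its genes run from HOXC13, a hair and nail gene, to HOXC4 with rising coordinates, and its DMSO median of 10.05 was below the 10.86 of the HOXC13-side flank and above the 9.03 of the other. Against both flanks together it was 0.28 lower, and this turned to 0.075 higher for windows centred in the cluster. Its highest window, 12:54330001-54430000, was at 10.50, with 9.50 in the first window, 12:54240001-54340000, and 9.86 in the last, 12:54440001-54540000. In 72 of its 164 flank windows the DMSO level was higher than in this highest HOXC window.

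HOXD was an island. All 164 of its flank windows of 100 kb and all 344 of 50 kb were at the floor in both treatments, on the side of EVX2 and HOXD13 and on the side of HOXD1 and MTX2. In DMSO 5 of its 18 windows of 100 kb stood above the floor, from 1.98 to 5.86, and the highest, 2:176960001-177060000, covers most of the interval. All of these levels were below the median of all measured 100 kb windows, 8.60. At 50 kb, 13 of 28 windows were above the floor in DMSO, within 176950001 to 177065000, with a highest level of 5.84.

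**Figure D2:**
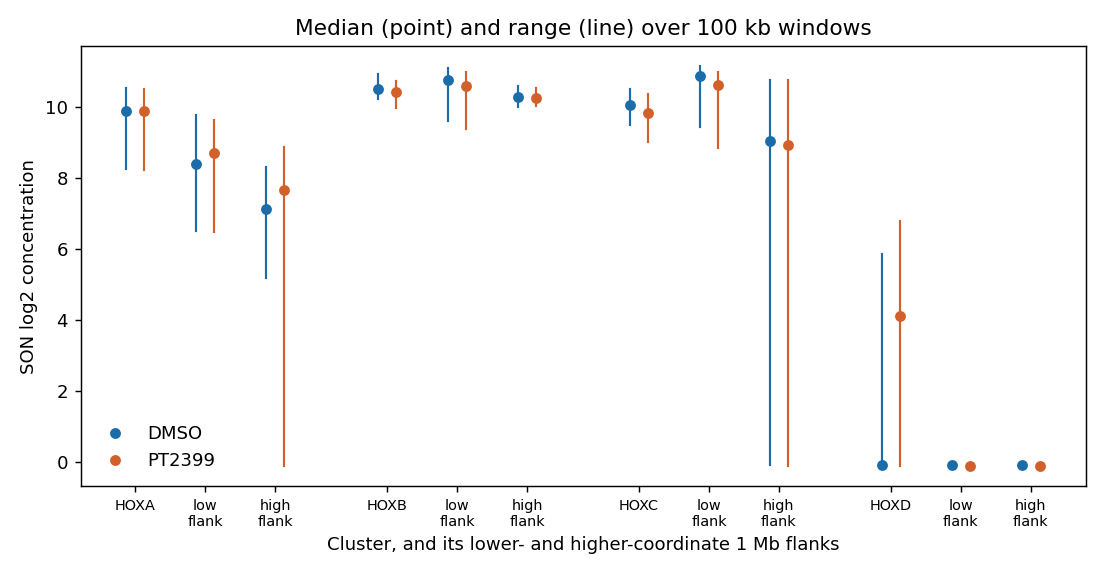
Median (point) and lowest to highest value (line) of the SON log2 concentration (y axis) over 100 kb windows of each HOX cluster and of its lower- and higher-coordinate 1 Mb flank (x axis), in DMSO (blue) and PT2399 (orange). The HOXA points stand above both flanks, the HOXC points between theirs, and the HOXD flanks have no spread because every window is at the floor.

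CG dinucleotides, which Polycomb-bound promoters often hold in number, were counted in the HOX promoters. RefSeq promoter entries (250 bases before to 50 after a start) were found for 20 of the 38 genes, 27 promoters in all, of which 16 belong to HOXA, 8 to HOXD, 2 to HOXC and 1 to HOXB. The CG dinucleotide reads the same on both strands, and it numbered a median of 21.5 in HOXA promoters and 24.5 in HOXD promoters, against 14 over all 35116 promoters of this length. At least 20 CG were held by 9 of 16 HOXA and 6 of 8 HOXD promoters, and by 41.2% of all. The 2 HOXC promoters held 15 each and the 1 HOXB promoter held 11, so 0 of these reached 20. The HOXA promoters ran from 0, at a start of HOXA3, to 44, in HOXA13, and 7 of the 16 are starts of HOXA3. The HOXD promoters ran from 4, in HOXD4, to 36, in HOXD1. The difference from all promoters was not tested. The group 13 paralogs are shown because each marks 1 end of its cluster, HOXA with a high SON level and HOXD with a DMSO median at the floor, and CG is in capitals. HOXA13 lies at chr7:27200042-27200341 on the minus strand and HOXD13 at chr2:176092471-176092770 on the plus strand, both on GRCh38.p14 and so not comparable with the hg19 windows.
HOXA13: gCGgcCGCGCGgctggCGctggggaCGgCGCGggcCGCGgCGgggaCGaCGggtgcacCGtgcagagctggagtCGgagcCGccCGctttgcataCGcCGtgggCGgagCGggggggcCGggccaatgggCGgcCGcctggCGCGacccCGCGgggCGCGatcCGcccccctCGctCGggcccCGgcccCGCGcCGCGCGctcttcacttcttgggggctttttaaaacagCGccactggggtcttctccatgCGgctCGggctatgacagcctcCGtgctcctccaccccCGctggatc
HOXD13: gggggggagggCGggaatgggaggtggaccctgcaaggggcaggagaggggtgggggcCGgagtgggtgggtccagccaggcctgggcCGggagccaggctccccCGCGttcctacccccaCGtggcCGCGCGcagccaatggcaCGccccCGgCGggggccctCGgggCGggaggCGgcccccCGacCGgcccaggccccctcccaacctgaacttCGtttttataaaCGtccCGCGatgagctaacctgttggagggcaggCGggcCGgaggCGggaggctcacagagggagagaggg
The HOXD13 promoter held 24 CG. Windows of 50 or 100 kb cannot place a SON level at a single promoter.

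The comparison of PT2399 with DMSO asks whether HIF-2 inhibition moved the clusters relative to speckles. By the FDR in the authors' deposited tables (DiffBind per the submitters' processing notes), at most 0.01, 0 of the 83 windows of 100 kb were lower and 1 was higher, a HOXD window. Over all 100 kb windows 0.614% were called lower and 0.139% higher. An FDR of at most 0.05 in the authors' deposited tables was met by 2 members with a lower level, both in HOXC, and by the same HOXD window, against 1.64% lower and 0.372% higher of all. At 0.1 the counts were 3 lower, all in HOXC, and 3 higher, all in HOXD, against 2.75% and 0.635%. At an unadjusted p under 0.05 in the authors' deposited tables, 17 of the 83 (20.5%) were lower and 4 higher, against 6.1% and 1.77% of all windows. Of the 69 measured members 17 (24.6%) were lower at that p, against 15.3% of all measured windows, and 0 were higher, against 1.95%. Windows of 1 cluster overlap by up to 90 kb, so these counts are not of independent regions. At 50 kb, 0 of the 132 windows were called lower and 0 higher, where 0.176% and 0.0503% of all windows were. At an unadjusted p under 0.05 in the authors' deposited tables, 16 (12.1%) were lower and 4 (3.03%) higher, against 4.7% and 2.16% of all. Of the 116 measured 50 kb members, 16 (13.8%) were lower at that p and 0 higher. Among all 178559 measured 50 kb windows, 17363 were lower and 3203 higher at that p.

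In HOXA the median change was -0.03, and 12 of 19 windows were lower, 5 higher and 2 at 0. Of all 90286 measured 100 kb windows, 60975 were lower and 28359 higher. The HOXA changes ran from -0.24, where 7:27040001-27140000 went from 9.29 to 9.05, to 0.06, where 7:27100001-27200000 went from 10.26 to 10.32. The lowest FDR was 0.382 in the authors' deposited tables, for the first of these windows, and 0 HOXA windows had an unadjusted p under 0.05. Recentred, the median was 0.10, so the direction for HOXA depends on the scaling. The HOXA flanks had a median change of 0.21, and 101 of their 164 windows had a change above that of the highest HOXA window. Flank levels in DMSO ran from 5.18 to 9.76, lower in the median than the cluster but overlapping its range of 8.24 to 10.52. At an unadjusted p under 0.05 in the authors' deposited tables, 10 of the 164 were higher and 2 lower, against 1.77% and 6.1% of all windows. The lowest flank change was -6.21, and 1 flank window was at the PT2399 floor. Among the 10 higher windows, 7:27870001-27970000, 620 kb past the HOXA13 side of the cluster, rose from 7.13 to 8.87. Its FDR was 0.00982 in the authors' deposited tables.

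In HOXB the median change was -0.15, which leaves 90.1% of the DMSO level. Of its 27 windows 24 were lower, against 60975 of all 90286 measured windows. Recentred, the HOXB median was -0.02, so the change was close to that of measured windows in general. At the HOXB1 edge, 17:46510001-46610000 had 10.30 in DMSO and 10.31 with PT2399. The lowest change, -0.30, lay toward HOXB13, at 17:46740001-46840000, with 10.31 and 10.01. In the authors' deposited tables that window had an unadjusted p of 0.0098 and an FDR of 0.108, so it did not pass. There 7 of the 27 HOXB windows were lower at an unadjusted p under 0.05, against 15.3% of all measured windows. The highest window, 17:46620001-46720000, went from 10.91 to 10.72. At 50 kb the lowest change was -0.46, at 17:46740001-46790000 (FDR 0.174 in the authors' deposited tables). The HOXB1-side flank had the same median change, -0.15, and the other flank -0.01. In the first, 2 windows within 46130001 to 46240000, at least 360 kb from the cluster, were called lower, at -0.37 and -0.41 (FDR 0.0012 and 0.000939 in the authors' deposited tables).

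In HOXC the median change was -0.23, or 85.3% of the DMSO level. All 19 of its windows were lower, against 60975 of all 90286 measured windows. Recentred, the HOXC median was -0.11. At 50 kb the median was smaller, -0.14 and -0.02 recentred, with 29 of 29 windows lower and 5 of them at an unadjusted p under 0.05 in the authors' deposited tables. Of all 178559 measured 50 kb windows, 114746 were lower, 17363 of them at that p. The change was uneven along the cluster. It was -0.48 in the edge window 12:54240001-54340000, with 9.50 in DMSO and 9.02 with PT2399, of which 10 kb lie in the interval, at the HOXC13 end. For that window the authors' deposited tables give an unadjusted p of 0.00193 and an FDR of 0.0433. It was -0.10 at 12:54370001-54470000, with 10.40 and 10.30. Windows centred in the cluster had a median change of -0.16, with -0.22 on the HOXC13 side of its midpoint and -0.13 on the other. The windows wholly within the interval changed by -0.15, -0.11 and -0.11, or by -0.03, 0.02 and 0.01 when recentred. No HOXC window passed an FDR of 0.01. An unadjusted p under 0.05 with a lower level was held by 10 of 19 in the authors' deposited tables, against 15.3% of all measured windows. At 50 kb the lowest change, -0.94 from 8.63 to 7.69, was at 12:54285001-54335000, which has 5 kb in the interval and an FDR of 0.0203 in the authors' deposited tables. The 50 kb windows centred in the cluster had medians of -0.11 on the HOXC13 side and -0.15 on the other.

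At 100 kb HOXC lay beside called windows without holding one. Its HOXC13-side flank had a median change of -0.28, and 18 of its 82 windows were called lower, from 53460001 to 54240000, the nearest 90 kb from the cluster at -0.50 (10.02 to 9.52, FDR 0.00284 in the authors' deposited tables). On the other side, 12:54470001-54570000, 20 kb from the cluster, was also called, at -0.50 (10.06 to 9.56, FDR 0.00391 in the authors' deposited tables). At 50 kb no call lay near the cluster, since the 7 called flank windows were 740 to 770 kb away on the HOXC13 side. The cluster's median change equalled that of both flanks together, -0.23, with a difference of 0.00 at 100 kb and of 0.11 at 50 kb.

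**Figure D3:**
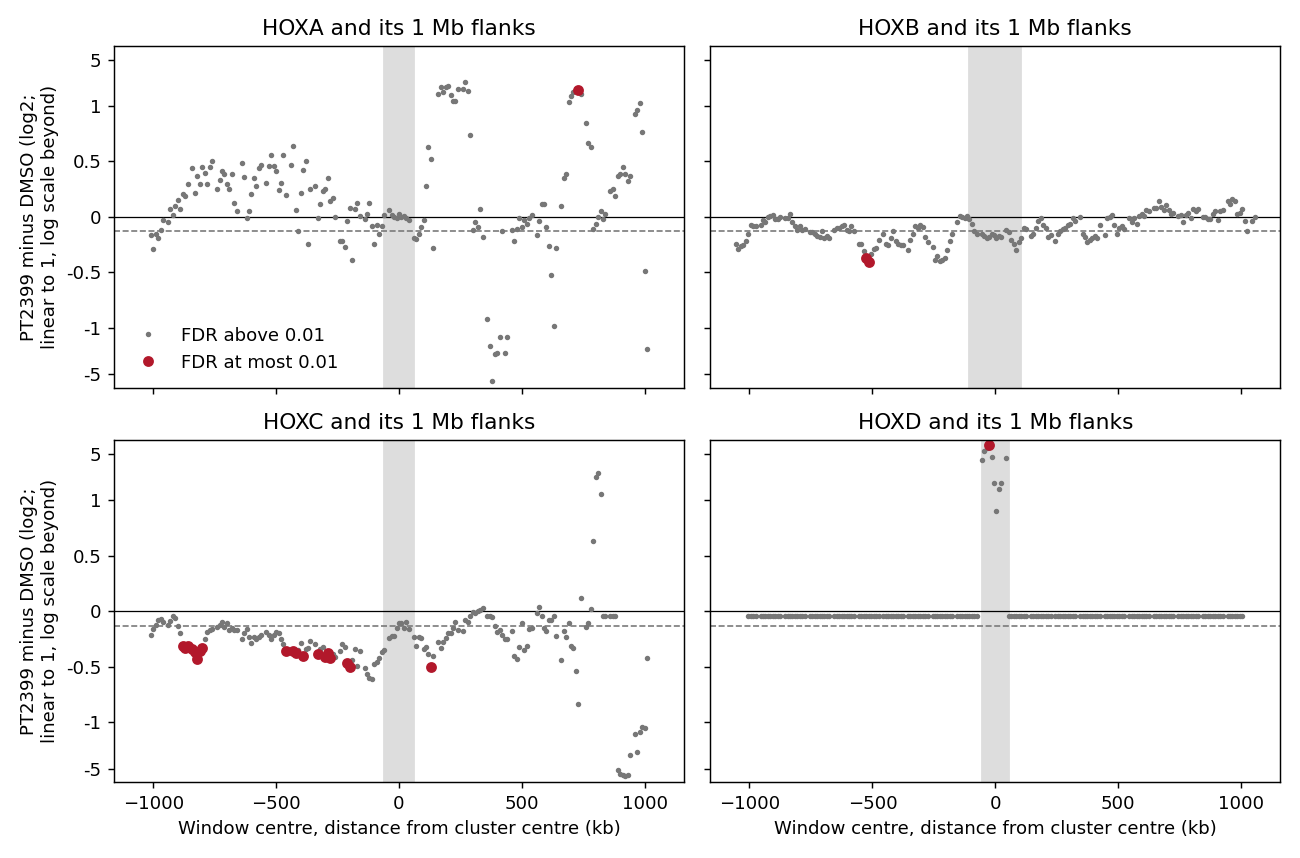
PT2399 minus DMSO in log2 units (y axis, linear up to 1 in either direction and logarithmic beyond) for 100 kb windows by the distance of the window centre from the cluster centre in kb (x axis). Red points passed an FDR of 0.01 in the authors' deposited tables, the dashed line is the median of all measured windows (-0.13), and shading marks the cluster. The only red point within a shaded interval is in HOXD.

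In HOXD, 1 of the windows that rose from the floor with PT2399 was called. In 2:176930001-177030000, which has 80 kb in the interval, the level was -0.07 in DMSO and 6.80 with PT2399. Its unadjusted p was 5.88e-05 and its FDR 0.00442 in the authors' deposited tables. The DMSO value is the floor, so no fold is given. PT2399 levels were above the floor in 10 of 18 windows, from 4.01 to 6.80, against 5 in DMSO, and the other 8 were at the floor in both. In 5 of these 10 DMSO was at the floor, which fixes their direction, and the median change over the 18 windows was 1.19. In the 4 measured windows DMSO levels from 3.32 to 5.86 stood beside PT2399 levels from 5.16 to 6.76, and the best measured, 2:176960001-177060000, had 5.86 and 6.76. None of these 4 passed the test, with an FDR from 0.392 to 0.79 in the authors' deposited tables. The window at 2:176920001-177020000, next to the called one and sharing 90 kb with it, stood at -0.07 and 6.01 with an FDR of 0.0647 in the authors' deposited tables, and the call stands in 1 of the 9 window sets.

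In 50 kb windows the median change of HOXD was 0.17, against 1.19 at 100 kb, and the largest changes lay at the HOXD13 side. PT2399 signal began in the window at 176925001, 25 kb before the first window with DMSO signal, and in 6 windows PT2399 was above the floor with DMSO at it. Of these 6, 2 lie at the HOXD1 end, with 25 and 20 kb in the interval. They are 2:177035001-177085000, with a PT2399 level of 3.30, and 2:177040001-177090000, with 2.17, and neither passed the test. At 2:176950001-177000000 the level was 0.54 in DMSO and 6.45 with PT2399 (FDR 0.0133 in the authors' deposited tables), and at 2:176935001-176985000 it was -0.07 and 5.79, with an FDR of 0.079. HOXD13 and its neighbours at that end pattern limbs and genitalia. All 10 windows centred on the HOXD13 side of the cluster's midpoint were higher with PT2399, with medians of 2.71 in DMSO and 6.43 with PT2399. DMSO was at the floor in 4 of these 10, which fixes their direction, and only 5 of the 10 were measured. Among windows centred on the HOXD1 side within the cluster, 3 of 11 were higher, 7 lower, of which 3 were at the floor in both, and 1 was at 0. There the lowest change was -1.38 at 2:177010001-177060000, from 4.54 to 3.16 (FDR 0.77 in the authors' deposited tables). None of the 28 windows of 50 kb passed an FDR of 0.01.

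**Figure D4:**
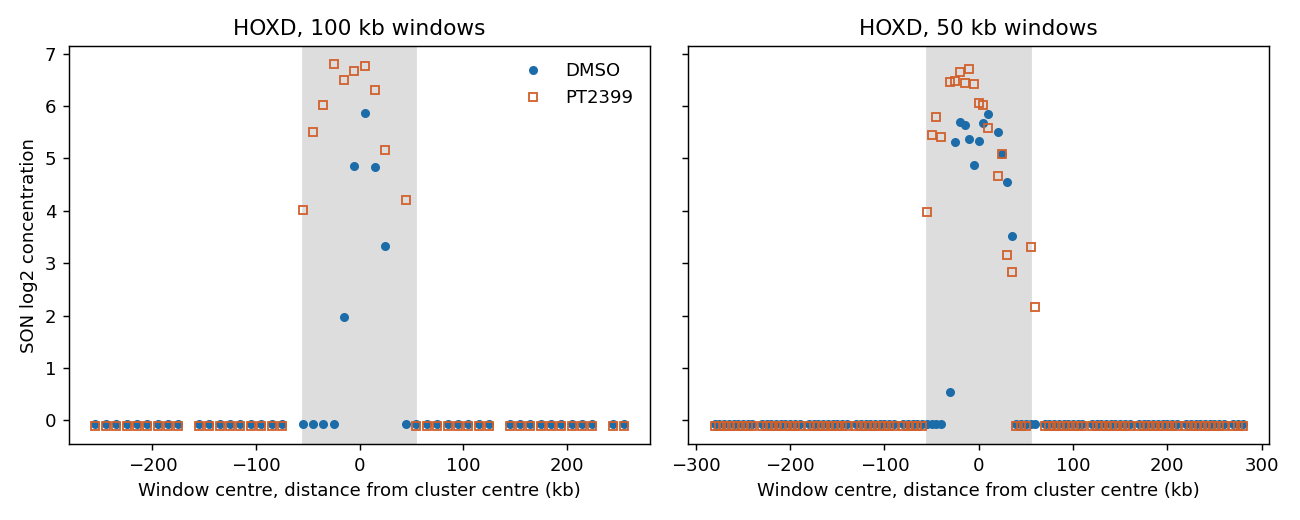
SON log2 concentration (y axis) of 100 kb (left) and 50 kb (right) windows around HOXD by the distance of the window centre from the cluster centre in kb (x axis), for DMSO (filled circles) and PT2399 (open squares), with the cluster shaded. PT2399 squares leave the floor farther to the left, the HOXD13 side, than DMSO circles, and on the right of the 50 kb panel PT2399 lies at or under DMSO in several windows and above it in others, 2 of which have DMSO at the floor.

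Changes of this kind between the floor and a signal occurred in both directions over the series. Among all 100 kb windows, 839 were at the floor in DMSO with at least 6 in PT2399, of which 2 are in HOXD, and 832 were at the floor in PT2399 with at least 6 in DMSO, of which 0 are in HOXD. At 50 kb the counts were 838 and 999, with 0 in HOXD in either direction.

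None of the 38 HOX genes was in the authors' deposited lists of genes at lower windows, of 1023 genes at 100 kb and 258 at 50 kb. These lists hold 4.29% and 1.11% of RefSeq coding genes and 1.65% and 0.422% of all RefSeq genes, so that 0 or 1 hit in a list this short is near the background. The same held for 9 HOX cofactors of the PBX, MEIS and PKNOX families, 8 Trithorax genes, 18 RNA genes of the clusters, among them HOTAIR, HOTTIP and the MIR10 and MIR196 genes, and 12 genes beside the clusters. Of 15 Polycomb genes, EZH2, the H3K27 methyltransferase, was in the 100 kb list, and 0 were in the 50 kb list. In RefSeq gene order the nearest listed gene to HOXC in the authors' deposited 100 kb list was CALCOCO1, with 0 coding genes between it and HOXC13, and the nearest to HOXB was SNX11, with 1 between. For HOXA the nearest in that list was COA1, with 67 coding genes between.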

How the data were processed

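SON TSA-seq of 786-O cells was deposited as 18 tables of windows. DiffBind, Bowtie2, bedtools and Picard, with the build hg19, are named in the submitters' processing notes, and their settings, the scaling between libraries and the use of inputs are not stated there. The deposited tables hold, per the file headers, log2 concentrations per treatment, a log2 fold (control minus treatment within 0.01) and, per window, a p-value and an FDR. Control was taken as DMSO. Windows of 100 kb come in 9 sets, each offset from the next by 10 kb, and windows of 50 kb in 9 more with an offset of 5 kb.

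Change was computed as PT2399 minus DMSO. Intervals were read from the base after their start. Medians were taken over windows of all sets, and the test was the authors' deposited FDR at a maximum of 0.01, since the deposited unit allows no count test. The members and lists were chosen with earlier results of these data known. The windows named are, in each cluster, those of lowest and highest DMSO level, lowest and highest change and lowest FDR. Windows beyond this rule were chosen after their values were seen. These are the called flank windows, HOXD windows beside the strongest or at the HOXD1 end, and edge windows and windows wholly within the interval of HOXC. Window selection and medians were tested on simulated data. Alternatives covered window size, overlap rule, mean, single sets, measured windows, centring, flank width and side, and FDR threshold. Python 3.11.15, numpy 2.4.6, pandas 2.3.3 and matplotlib 3.10.9 were used.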

Additional observations from a re-analysis of the deposited data

How the results depend on the processing

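No paired analysis was possible because the tables give 1 mean per treatment; for the same reason leaving out each replicate was not run. Over all alternatives, 180 values kept their direction and side of the threshold or moved by less than the SD over the cluster's windows, the yardstick in place of a replicate SD. Another 30 moved, 13 reversed and 4 lost their call. Some of the 180 could not differ, since all HOXA, HOXB and HOXC windows are measured and all HOXD flank windows are at the floor. For HOXD the yardstick was wide. Its change against flanks fell from 1.225 to 0.21 at 50 kb and still counted as kept, with an SD of 2.47. Adding windows that share only the first base of an interval was chosen after seeing the data and the other alternatives were listed earlier. Windows of 50 kb gave levels of 9.12 for HOXA in PT2399, 9.41 and 9.42 for HOXB and 9.25 and 9.04 for HOXC (DMSO, PT2399), since a shorter window holds fewer reads. They turned HOXC against its flanks to 0.075 in PT2399, left HOXD a median change of 0.17 with no call, and called 0 windows higher. Recentring turned HOXA to 0.10. Measured windows alone gave HOXD 4.85 in DMSO and a change of 1.64 with no call, because the called window has DMSO at the floor. Windows centred in the cluster put HOXC at 10.40 in DMSO, 0.075 above its flanks (0.29 in PT2399), and the HOXD change 4.12 above them. With means, HOXC stood 0.79 (DMSO), 0.96 (PT2399) and 0.17 (change) above its flanks. Of the 164 HOXC flank windows, 7 were at the floor in DMSO and 10 with PT2399, and these floor values enter the flank means. Single sets, with 2 or 3 windows a cluster, reached 9.05 for HOXA in PT2399 and 2.90 for HOXD in DMSO, with HOXD changes of 0.43 to 4.18 and no call at either end. Against flanks they reached 0.72 (HOXA, PT2399), -0.38 and -0.045 (HOXA, change), -0.01 and -0.09 (HOXB, DMSO and PT2399), -0.66 and -0.15 (HOXC, PT2399 and change), and 2.97 and 4.22 (HOXD, DMSO and change). Flanks of 500 kb gave 2.70 for HOXA in DMSO, -0.13 for its change and 0.01 for the HOXB change. Flanks of 2 Mb gave 3.17, 2.71 and -0.02 for HOXA (DMSO, PT2399, change). The higher-coordinate flank alone gave 2.76 for HOXA in DMSO, and 1.02 and 0.89 for HOXC (DMSO, PT2399). The lower-coordinate one gave -0.27 and -0.17 for HOXB and -0.81 and -0.80 for HOXC. An FDR of 0.05 called 2 windows lower, and 0.1 called 3 lower and 3 higher. Where no construction is named, the cause was not tested. Floor values limit HOXD.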
